A study of Mus musculus with 12 samples.

Results

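The genes described here were 10 integrin subunits of natural killer (NK) cells, chosen by gene symbol: Itgal, Itgam, Itgax and Itgb2 of the β2 family, the collagen receptor chains Itga1 and Itga2, Itga4 with its partners Itgb1 and Itgb7, and the platelet chain Itga2b. They took 11 of the 50674 rows of the deposited count table, because the symbol Itgam stood on 2 rows, and all 11 rows were among the 17457 tested. The second of those rows, ENSMUSG00000108596, is named Gm49368 in GENCODE vM21 and is called so below. It lies on the same strand as Itgam and overlaps 3450 bases, 68.7%, of its exons. Gm49368 held 0 to 27 counts per library and Itgam 314 to 666, and how the authors' counting split shared reads between them is uncertain.

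The cells were splenic NK cells of C57BL/6 mice grown in IL-2, the cytokine that keeps NK cells dividing in culture. There were 4 groups with 3 biological replicates each: Mirc11-/- cells stimulated through NKG2D for 6 h, Mirc11-/- cells left untreated, wild-type cells stimulated for 6 h, and untreated wild-type cells. NKG2D is an activating receptor of NK cells, and Mirc11 is a cluster of 3 microRNA genes, those for miR-23a, miR-27a and miR-24. Every group had been expanded in IL-2, so none stands for NK cells as they are in the spleen, and the labels do not say in which cells of the mice the cluster had been deleted.

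Integrins are pairs of an α and a β chain that hold a cell to other cells or to matrix. Signals inside the cell unlock them through talin and kindlin, and bound integrins in turn signal through kinases and adaptor proteins. In NK cells the β2 integrin LFA-1 (Itgal with Itgb2) binds ICAM proteins on a target cell and organises the contact through which lytic granules are released. Itgam and Itga2 are in common use as surface markers of mouse NK cells, and Itga1 as a marker of NK cells that reside in tissue.

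Depth was 15139281 to 25342991 counts per library. The deleted genes were barely seen in this polyadenylated RNA. Mir27a had 0 counts in each of the 6 Mirc11-/- libraries, against 1, 0 and 4 in stimulated and 2, 3 and 3 in unstimulated wild-type cells. The 12 NK markers examined were present in every group. Their summed level was 4960 to 7640 CPM in stimulated and 12600 to 13600 CPM in unstimulated Mirc11-/- cells. In wild-type cells it was 8530 to 9910 CPM with stimulation and 11600 to 13900 CPM without. Most of this sum was Gzmb and Prf1, for granzyme B and perforin. They averaged 3159 and 1063 CPM in stimulated and 7451 and 2492 CPM in unstimulated Mirc11-/- cells. With stimulation there, 5 of the 12 markers did not pass and Tbx21 rose. Stimulated Mirc11-/- replicate 1 stood apart from its group: a chi-square of counts per gene was 50.8 and 42.8 against replicates 2 and 3, beside 5.15 between those and 9.76 to 36.8 in the other groups. It had the lowest NK marker sum of all libraries and the highest vomeronasal sum, described next. Without it, the stimulation calls in Mirc11-/- cells were the same 6 integrins and Itgb1, the calls for loss of Mirc11 in stimulated cells were Itgb2 and Itgb1 without Itgax, and Itgb2 passed for loss in unstimulated cells (log2 fold change -0.359, adjusted p = 0.0154). Stimulated wild-type replicate 1 stood apart from its group to a lesser degree. Its chi-square was 30.3 and 36.8 against replicates 2 and 3, beside 14.8 between those. It too had the lowest NK marker sum (8530 CPM) and the highest vomeronasal sum (41.5 CPM) of its group. CPM is the count of a gene scaled to a common library total. A signal from genes of another tissue also moved with stimulation: 548 vomeronasal receptor genes, which belong to sensory neurons of the nose, had a summed level of 49.1 to 85.4 CPM in stimulated Mirc11-/- libraries against 14.6 to 17 CPM in unstimulated ones, while wild-type libraries summed to 24.8 to 41.5 CPM when stimulated and 13.6 to 17.4 CPM when not.

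The microRNAs encoded by the deleted genes, of which Mir24-2 is the one for miR-24, are shown with their seed in capitals. The seed, bases 2 to 8, is the part that pairs with a target. Mature microRNAs were not measured, and whether genes outside the cluster encode the same sequences or seeds was not examined. Sequences are from RefSeq (GRCm38.p6), 5′ to 3′. The genes lie on the plus strand of chromosome 8, with miR-23a-3p at chr8:84208563-84208583, miR-27a-3p at chr8:84208727-84208747 and miR-24-3p at chr8:84208875-84208896. The seeds of miR-23a and miR-27a differ in 1 letter, the last but one.
miR-23a-3p: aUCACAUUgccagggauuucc
miR-27a-3p: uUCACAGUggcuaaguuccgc
miR-24-3p: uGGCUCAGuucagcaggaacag

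Itga1, Itga2 and Itga4 held 7-base matches to these seeds in the longest annotated 3′ untranslated region (GENCODE vM21, GRCm38), and the other 7 integrins held none. Each stretch below is the coding strand of the mRNA with the match in capitals. The 2 miR-27a-3p matches of Itga1 were at chr13:114954433-114954462 and chr13:114953677-114953706 (minus strand), and its miR-23a-3p match was at chr13:114953118-114953147. In Itga2, on the minus strand beside it, the miR-23a-3p match was at chr13:114833969-114833998 and the miR-27a-3p match at chr13:114833768-114833797. In Itga4 the miR-27a-3p match was at chr2:79328836-79328865 and the miR-24-3p match at chr2:79332758-79332787 (plus strand).
Itga1, miR-27a-3p, first: ggacactcagcACTGTGActacatttggcg
Itga1, miR-27a-3p, second: tgtgtgttactACTGTGAagctgtcctgat
Itga1, miR-23a-3p: tcaaagaaaaaAATGTGAttactgttattt
Itga2, miR-23a-3p: gtagatcacaaAATGTGAtcttaagaacct
Itga2, miR-27a-3p: ttgcctctttaACTGTGAagaataaagaca
Itga4, miR-27a-3p: gttactatctcACTGTGAagtctgagattt
Itga4, miR-24-3p: tatactcctagCTGAGCCacaagccagcaa

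A match of this kind was common: of 21028 genes with an annotated 3′ untranslated region, 15.1% held one for miR-23a-3p, 16% for miR-27a-3p and 16.2% for miR-24-3p. Length differed widely among the integrins. The untranslated regions of the 3 genes with matches were 6994, 3404 and 6508 bases in Itga1, Itga2 and Itga4, and those of the other 7 were 164 to 1528 bases, beside a median of 961 over all genes. A match describes the letters in the region and shows no binding.

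Levels of different integrins were compared per kilobase of the longest protein-coding transcript. In stimulated Mirc11-/- cells Itgb1 led at 103 ± 9.94 CPM per kilobase (SD, n = 3 for every mean here), and Itgb2 (48.9 ± 3.56) and Itgal (46.5 ± 3.96) were within their spread of each other. Itgax followed at 36.5 ± 5.11, then Itgb7 (22.9 ± 0.669) and Itga4 (22.3 ± 0.771), which were within their spread, and Itga1 at 20.1 ± 1.59. Far below them came Itgam at 4.97 ± 0.253, and at the bottom Itga2b (0.608 ± 0.0871) and Itga2 (0.566 ± 0.0635), again within their spread. Unstimulated Mirc11-/- cells had Itgb2 at the top with 113 ± 8.57 CPM per kilobase, before Itgb1 (89.3 ± 4.68), Itgal (72.1 ± 6.25), Itgax (45.4 ± 2.01), Itgb7 (20.4 ± 2.19), Itga1 (15.6 ± 0.359), Itga4 (8.75 ± 0.528), Itgam (7.19 ± 0.612), Itga2 (1.63 ± 0.22) and Itga2b (0.391 ± 0.0816).

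The wild-type order was similar at the top and differed in the middle. With stimulation Itgb1 led there too, at 137 ± 9.52 CPM per kilobase, before Itgb2 (83 ± 3.44), Itgal (46.6 ± 1.29) and Itga4 (26.5 ± 1.28). Itga1 (22.6 ± 1.97), Itgax (18.9 ± 5.53) and Itgb7 (17.3 ± 1.83) came next, with each within the spread of Itgax, and Itgam (3.55 ± 0.152), Itga2 (0.456 ± 0.0188) and Itga2b (0.3 ± 0.123) last. In unstimulated wild-type cells Itgb2 was highest at 144 ± 8 CPM per kilobase, followed by Itgb1 at 98.7 ± 6.78 and Itgal at 73.6 ± 4.07. Itgax (20.5 ± 7.87), Itga4 (13.7 ± 0.402), Itga1 (13.2 ± 0.781) and Itgb7 (13.1 ± 2.76) were within the spread of Itgax, and below them were Itgam at 4.43 ± 1.25, Itga2 at 1.03 ± 0.103 and Itga2b at 0.265 ± 0.0375.

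**Figure D1:**
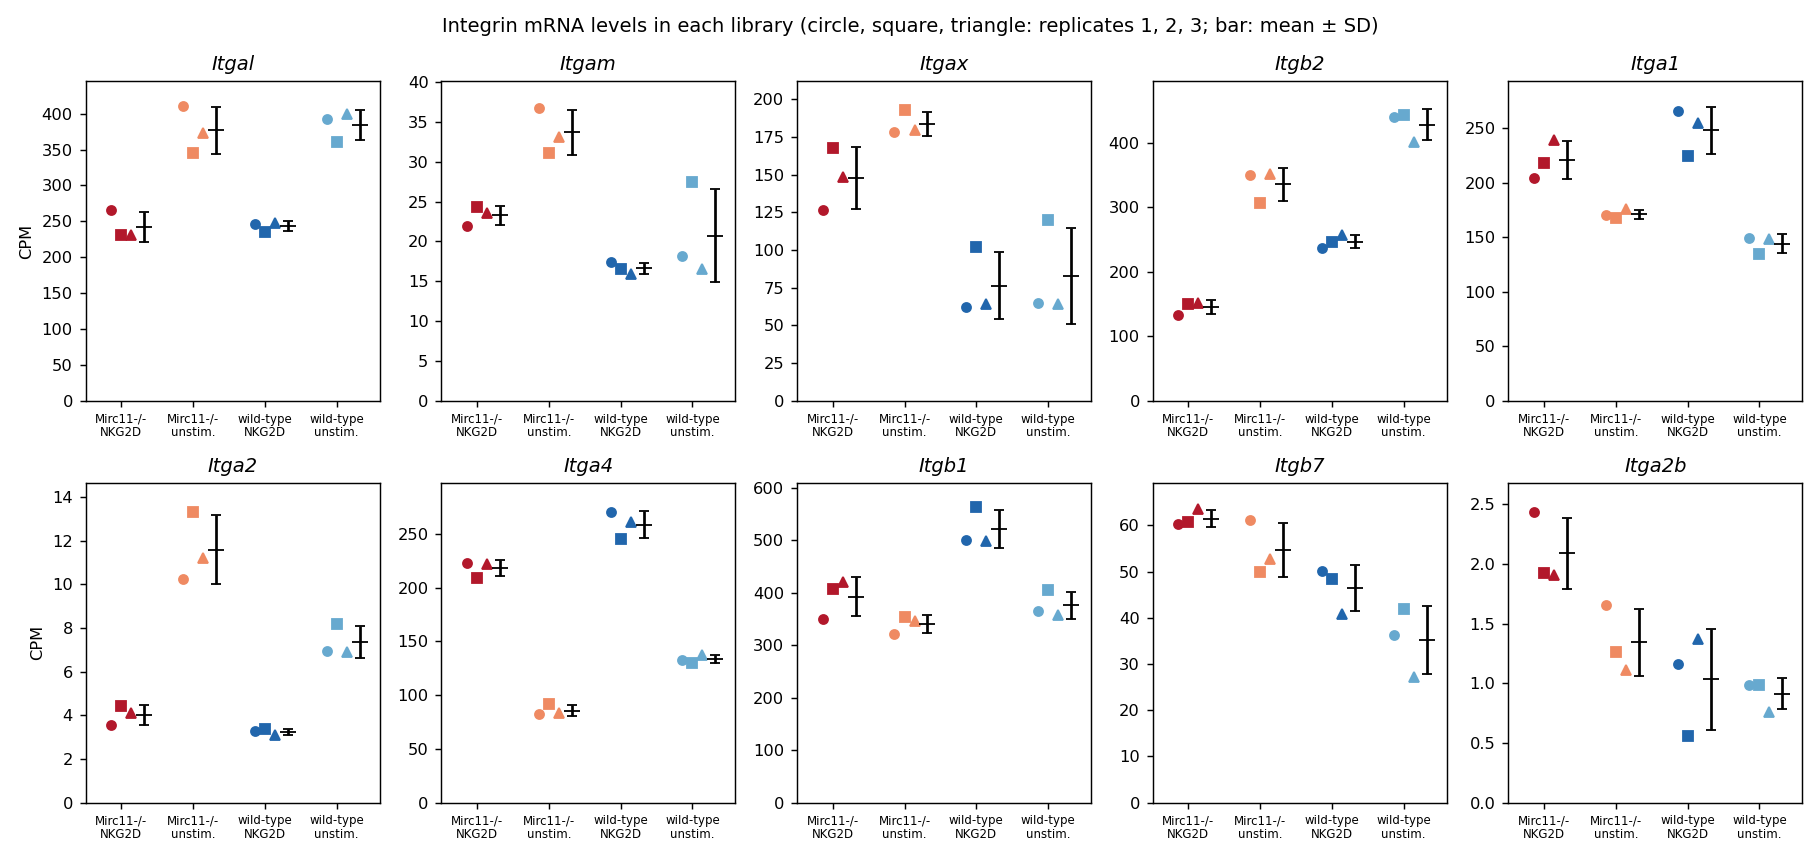
Level of each integrin mRNA (CPM, y axis from 0) in each of the 12 libraries, by group, with the mean and SD of the 3 libraries as a bar. Itgb2 is lowest in stimulated Mirc11-/- cells (133 to 153 CPM) and Itga4 is lowest in unstimulated Mirc11-/- cells (82.1 to 91.4 CPM).

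The first comparison asked how 6 h of NKG2D stimulation changed the integrins. The β2 chain Itgb2, its partner Itgal and the collagen receptor chain Itga2 fell in both genotypes, while Itga4 and the other collagen receptor chain, Itga1, rose in both. Among Mirc11-/- libraries, 2 of the 11 rows were higher and 4 lower at an adjusted p under 0.05, where 23.5% and 22.1% of all tested genes were higher and lower. Among wild-type libraries, 4 were higher and 3 lower, beside 16.1% and 15.7% of all genes. The median log2 fold change over the 11 rows was 0.17 in Mirc11-/- and 0.187 in wild-type cells, and 0.0319 and 0.0208 over all tested genes. NK marker levels moved too: 6 of the 12 markers fell and 1 rose with stimulation in Mirc11-/- cells, and 6 fell and 3 rose in wild-type cells. In bulk RNA, fewer cells of a type and less RNA per cell cannot be told apart.

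**Figure D2:**
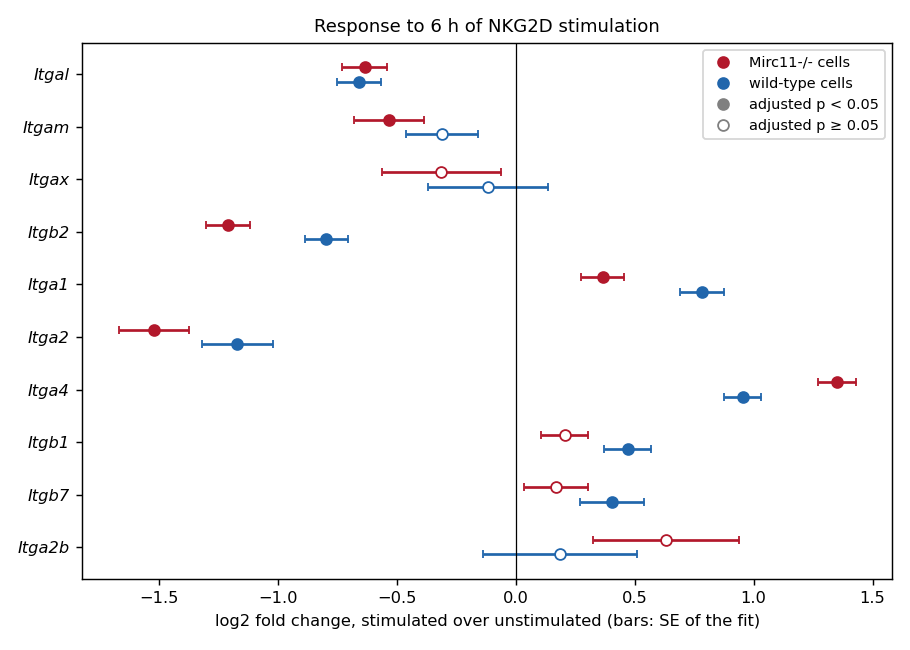
Log2 fold change of each integrin with 6 h of NKG2D stimulation (x axis, stimulated over unstimulated, bars are the SE of the fit), in Mirc11-/- and wild-type cells, filled where the adjusted p was under 0.05. Itga4 is farthest to the right (1.35 and 0.955) and Itga2 farthest to the left (-1.52 and -1.17).

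Itgb2, the chain shared by all β2 integrins, had 133, 150.1 and 153 CPM in stimulated and 350.2, 307 and 351 CPM in unstimulated Mirc11-/- cells. In wild-type cells it had 237, 246 and 257 CPM when stimulated and 440, 444 and 401 CPM when not. Stimulated and unstimulated libraries were far apart in both genotypes. Itgb2 fell 2.31-fold in Mirc11-/- cells (log2 fold change -1.21 ± 0.0922 SE, adjusted p = 5.22e-07) and 1.74-fold in wild-type cells (-0.796 ± 0.0911, adjusted p = 2.74e-05).

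Itgal, the α chain of LFA-1, had 267, 231 and 230.4 CPM in stimulated and 411, 346 and 374 CPM in unstimulated Mirc11-/- cells. The wild-type values were 246, 236 and 248 CPM when stimulated and 392, 360.1 and 400.2 CPM when not. Itgal thus fell by nearly the same amount in both, 1.55-fold in Mirc11-/- cells (log2 fold change -0.635 ± 0.094, adjusted p = 0.000131) and 1.58-fold in wild-type cells (-0.659 ± 0.094, adjusted p = 0.000159).

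Itgam encodes CD11b, which pairs with Itgb2 as a receptor for complement and other ligands. It had 22.0, 24.3 and 23.5 CPM in stimulated and 36.8, 31.1 and 33.1 CPM in unstimulated Mirc11-/- cells, with no overlap. Itgam fell 1.45-fold there (log2 fold change -0.533 ± 0.149, adjusted p = 0.0101). Wild-type libraries overlapped, at 17.4, 16.6 and 15.9 CPM when stimulated and 18.2, 27.4 and 16.6 CPM when not, and the change of -0.311 ± 0.151 did not pass (adjusted p = 0.134). Without the highest of these libraries, unstimulated wild-type replicate 2, the wild-type value was -0.0719. Without replicate 3, the lowest, it was -0.458 and passed (adjusted p = 0.0386), as it did with no composition factor (-0.366, adjusted p = 0.0431).

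Itgax, which encodes CD11c, did not pass the test for stimulation in either genotype. It had 127, 168 and 149 CPM in stimulated and 178, 193 and 179.6 CPM in unstimulated Mirc11-/- cells (log2 fold change -0.314 ± 0.25, adjusted p = 0.331). Wild-type cells had 62.5, 102.2 and 64.4 CPM when stimulated and 64.6, 119.7 and 64.4 CPM when not (-0.116 ± 0.252, adjusted p = 0.763). Replicate 2 was the highest wild-type library for Itgax in both treatments.

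The neighbouring genes Itga1 and Itga2, 20995 bases apart on chromosome 13 (GRCm38), moved in opposite directions. Each encodes an α chain that pairs with Itgb1 to bind collagen. Itga1 had 204, 219 and 239 CPM in stimulated and 170.1, 168 and 176 CPM in unstimulated Mirc11-/- cells, and 266, 224 and 255 CPM against 149.6, 134 and 149 CPM in wild-type cells. Libraries did not overlap in either genotype, and Itga1 rose 1.29-fold in Mirc11-/- cells (log2 fold change 0.366 ± 0.0905, adjusted p = 0.00486) and 1.72-fold in wild-type cells (0.783 ± 0.0908, adjusted p = 2.98e-05).

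Itga2, known as CD49b, had 3.54, 4.43 and 4.1 CPM in stimulated and 10.3, 13.3 and 11.2 CPM in unstimulated Mirc11-/- cells. In wild-type cells there were 3.26, 3.36 and 3.1 CPM with stimulation and 6.95, 8.19 and 6.89 CPM without. It fell 2.88-fold in Mirc11-/- cells (log2 fold change -1.52 ± 0.148, adjusted p = 4.15e-06) and 2.26-fold in wild-type cells (-1.17 ± 0.149, adjusted p = 6.33e-05), on 61 to 211 counts per library.

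Itga4 pairs with Itgb1 to bind VCAM-1 and fibronectin, and with Itgb7 to bind MAdCAM-1. It had 223, 209 and 222 CPM in stimulated and 82.1, 91.4 and 82.9 CPM in unstimulated Mirc11-/- cells. The wild-type levels were 270.2, 245 and 261 CPM when stimulated and 133, 129.7 and 138 CPM when not. Itga4 rose 2.55-fold in Mirc11-/- cells (log2 fold change 1.35 ± 0.079, adjusted p = 6.56e-08) and 1.94-fold in wild-type cells (0.955 ± 0.0779, adjusted p = 1.35e-06). Cerkl, on the other strand, overlaps 8.04% of the exons of Itga4; it averaged 1.13 to 1.92 CPM per group.

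The β chains that pair with Itga4 moved less. Itgb1 had 349.6, 408 and 421 CPM in stimulated and 321, 355 and 347 CPM in unstimulated Mirc11-/- cells, with 1 stimulated library inside the unstimulated range, and 501, 563 and 499 CPM against 366, 406 and 357 CPM in wild-type cells. It rose 1.38-fold in wild-type cells (log2 fold change 0.47 ± 0.0993, adjusted p = 0.00279) and did not pass in Mirc11-/- cells (0.206 ± 0.0992, adjusted p = 0.106). Without stimulated Mirc11-/- replicate 1, the lowest of its group, the Mirc11-/- value was 0.286 with an adjusted p of 0.0122.

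Itgb7 had 60.2, 60.6 and 63.5 CPM in stimulated and 61.2, 49.9 and 52.8 CPM in unstimulated Mirc11-/- cells (log2 fold change 0.17 ± 0.134, adjusted p = 0.32). Wild-type levels were 50.2, 48.4 and 40.9 CPM with stimulation and 36.3, 41.9 and 27.3 CPM without, so that the groups overlapped. Itgb7 rose 1.32-fold in wild-type cells (0.405 ± 0.135, adjusted p = 0.034). That call was lost without stimulated wild-type replicate 1 (adjusted p = 0.129) or 2 (0.0982) and without unstimulated wild-type replicate 1 (0.0733) or 3 (0.156), where the log2 fold change was 0.24 to 0.421.

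Itga2b, the fibrinogen receptor chain of platelets, was at the low end, with 11 to 42 counts per library. It had 2.43, 1.92 and 1.91 CPM in stimulated and 1.66, 1.26 and 1.11 CPM in unstimulated Mirc11-/- cells, and 1.16, 0.561 and 1.37 CPM against 0.981, 0.989 and 0.762 CPM in wild-type cells. Neither change passed (log2 fold change 0.631 ± 0.307, adjusted p = 0.108, and 0.187 ± 0.324, adjusted p = 0.696). The 7 platelet markers summed to 2.47 to 4.23 CPM in stimulated and 2.14 to 4.08 CPM in unstimulated Mirc11-/- cells, and to 1.94 to 2.64 CPM and 1.37 to 2.51 CPM in wild-type cells. Most of these sums was Gp1ba and Gp6. They averaged 2.02 and 0.712 CPM in stimulated and 1.45 and 1.27 CPM in unstimulated Mirc11-/- cells. In wild-type cells they averaged 1.84 and 0.345 CPM with stimulation and 1.2 and 0.75 CPM without. Pf4, another of the 7, had 1, 1 and 0 counts in stimulated Mirc11-/- libraries and 0 in all others.

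With the vomeronasal receptor level as a covariate, Itga4 alone of the 6 integrins kept its stimulation call in Mirc11-/- cells (log2 fold change 1.08, adjusted p = 0.0123). The other 5 calls were lost with different sizes of change. Itgal was then at -0.893 ± 0.252 (adjusted p = 0.0674), further from 0 than without the covariate, and Itga2 at -1.24 ± 0.452 (0.134) and Itga1 at 0.281 ± 0.253 (0.552) were somewhat nearer. Itgb2 was at -0.761 ± 0.22 (0.0724), against -1.21 without the covariate, and Itgam at -0.117 ± 0.433 (0.906), against -0.533. The vomeronasal level did not overlap between stimulated and unstimulated libraries in either genotype. It was 49.1 to 85.4 against 14.6 to 17 CPM in Mirc11-/- cells and 24.8 to 41.5 against 13.6 to 17.4 CPM in wild-type cells. In wild-type cells 6 of the 7 calls were kept, and that of Itgb7 was lost (0.495, adjusted p = 0.158). Sums of markers of other cells moved with stimulation too. The 7 dendritic-cell markers summed to 23.1 to 33.7 CPM in stimulated and 11.1 to 14.3 CPM in unstimulated Mirc11-/- cells, and to 26.1 to 29.7 against 11.3 to 15.6 CPM in wild-type cells. Of the 4 tested, 3 rose in Mirc11-/- cells (Zbtb46, Xcr1 and H2-Ab1) and 1 in wild-type cells, Zbtb46, which averaged 19.31 against 8.38 CPM in Mirc11-/- cells (log2 fold change 1.2, adjusted p = 0.000123). The 10 macrophage and monocyte markers summed to 12.1 to 15.8 against 5.3 to 9.55 CPM in Mirc11-/- cells and to 16.1 to 19.5 against 8.94 to 11.4 CPM in wild-type cells, and of the 3 tested Cd14 and Cd68 rose in Mirc11-/- cells and Cd68 in wild-type cells. The untested members of both lists, among them Flt3, Lyz2 and Adgre1, averaged under 0.4 CPM in every group.

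The 6 B-cell markers summed to 102 to 113 CPM in stimulated and 64.2 to 73.2 CPM in unstimulated Mirc11-/- cells and to 105 to 128 against 57.1 to 71.9 CPM in wild-type cells, most of it Ighm, with 3 of 3 tested markers higher in Mirc11-/- and 2 of 3 in wild-type cells. Markers of ILC1, innate lymphoid cells that are kin to NK cells and reside in tissue, went the other way in sum, at 306 to 345 against 383 to 407 CPM in Mirc11-/- cells and 250 to 288 against 322 to 348 CPM in wild-type cells. Most of that sum was Inpp4b, which fell in both genotypes (log2 fold change -0.416 in Mirc11-/- and -0.535 in wild-type cells). Of the 7 tested of 8, 2 were higher and 3 lower in Mirc11-/- cells and 2 higher and 2 lower in wild-type cells. The ILC1 sum was also higher in Mirc11-/- than in wild-type cells within each treatment, with no overlap, and 1 of the 7 passed as higher in each, Inpp4b in stimulated and Tnfsf10 in unstimulated cells. The part of these cells in the integrin results was not tested.

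The next comparisons asked what loss of Mirc11 changed within each treatment. In unstimulated cells Itga4 was lower and Itgam, Itga2 and Itgb7 were higher without Mirc11, so 3 of the 11 rows were higher and 1 lower, beside 0.309% and 0.796% of all tested genes. The median log2 fold change of the 11 rows was 0.566, and 0.00762 over all tested genes. After stimulation Itgax was higher and Itgb2 and Itgb1 were lower, 1 and 2 of 11 rows, beside 3.89% and 5.13% of all genes. The median was then 0.311 over the 11 rows and 0.0227 over all tested genes. Libraries of the genotypes did not overlap for 9 of the 11 rows in each treatment, and this held for 32.6% of all tested genes in stimulated and 17.8% in unstimulated cells.

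**Figure D3:**
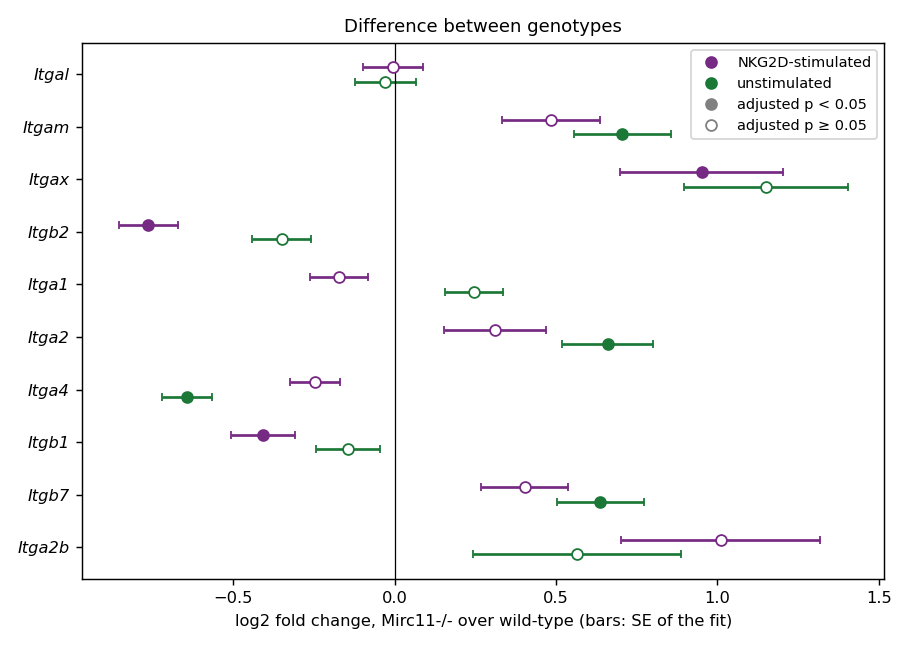
Log2 fold change of each integrin with loss of Mirc11 (x axis, Mirc11-/- over wild-type, bars are the SE of the fit) in stimulated and unstimulated cells, filled where the adjusted p was under 0.05. Itgax lies far to the right in both (0.951 and 1.15), Itgal lies close to 0 and Itgb2, Itgb1 and Itga4 lie to the left in both treatments.

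Itga4 was 1.56-fold lower in unstimulated Mirc11-/- than in unstimulated wild-type cells (log2 fold change -0.643 ± 0.0781, adjusted p = 0.000816), from the levels given above, 82.1 to 91.4 against 129.7 to 138 CPM. Every alternative tried kept this call, with an adjusted p of at most 0.0126. After stimulation the genotypes were closer, at 209 to 223 against 245 to 270.2 CPM (-0.246 ± 0.0772, adjusted p = 0.0586). Itga4 is 1 of the 3 integrins with a miR-27a-3p match and the only one with a miR-24-3p match.

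Itga2, which also has a miR-27a-3p match, was 1.58-fold higher in unstimulated Mirc11-/- cells, at 10.3 to 13.3 against 6.89 to 8.19 CPM (log2 fold change 0.66 ± 0.14, adjusted p = 0.0364). In stimulated cells its levels were 3.54 to 4.43 against 3.1 to 3.36 CPM (0.311 ± 0.157, adjusted p = 0.198). Itga1, with 2 such matches, passed in neither treatment (-0.171 ± 0.0902, adjusted p = 0.215, in stimulated and 0.247 ± 0.0905, adjusted p = 0.332, in unstimulated cells). The 3 genes with seed matches thus differed in direction among themselves.

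Itgam was 1.63-fold higher in unstimulated Mirc11-/- cells, at 31.1 to 36.8 against 16.6 to 27.4 CPM (log2 fold change 0.706 ± 0.149, adjusted p = 0.0357). Itgb7 was 1.56-fold higher there, at 49.9 to 61.2 against 27.3 to 41.9 CPM (0.638 ± 0.135, adjusted p = 0.0366). After stimulation neither passed (0.484 ± 0.152, adjusted p = 0.0586, for Itgam and 0.403 ± 0.134, adjusted p = 0.0702, for Itgb7), although the libraries did not overlap. The row Gm49368 had 1.56, 0.932 and 1.01 CPM in stimulated Mirc11-/- and 0.326, 0.51 and 0.305 CPM in stimulated wild-type cells (1.61 ± 0.651, adjusted p = 0.119).

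The calls of Itga2, Itgam and Itgb7 in unstimulated cells were close to the threshold, and all 3 were lost without Mirc11-/- replicate 1, 2 or 3 or wild-type replicate 1 or 3 of the unstimulated groups. Over those 5 the log2 fold change was 0.548 to 0.728 for Itga2, 0.568 to 0.76 for Itgam and 0.482 to 0.698 for Itgb7, and the adjusted p was 0.0549 to 0.246. Without unstimulated wild-type replicate 2, Itga2 was lost (adjusted p = 0.0598), while Itgam and Itgb7 kept their calls (0.000774 and 0.0174). Leaving out stimulated libraries changes the shared estimate of the spread, the filter and the scaling of libraries here, while all unstimulated libraries stay in. All 3 calls were lost without stimulated Mirc11-/- replicate 3 or stimulated wild-type replicate 1 or 2, and those of Itga2 and Itgam without stimulated wild-type replicate 3, with an adjusted p of 0.0516 to 0.0607.

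Itgax, the closest neighbour of Itgam among the 10 genes at 11055 bases on chromosome 7, had the largest fold difference among the 10 genes in unstimulated cells. Its level was 178 to 193 CPM in unstimulated Mirc11-/- against 64.4 to 119.7 CPM in unstimulated wild-type cells, 2.22-fold higher (log2 fold change 1.15 ± 0.254), and missed the threshold in edgeR (adjusted p = 0.069). It passed in the DESeq2 Wald test (1.14, adjusted p = 0.000114), in limma voom (1.21, 0.026), in the non-robust edgeR fit (0.0393) and with no composition factor (0.0364). In stimulated cells it was 1.93-fold higher, at 127 to 168 against 62.5 to 102.2 CPM (0.951 ± 0.253, adjusted p = 0.0437). Wild-type replicate 2 stood above the other wild-type libraries. Without it in the unstimulated group the value was 1.51 (adjusted p = 0.00366), and without it in the stimulated group 1.21 (adjusted p = 0.0321).

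The Itgax call in stimulated cells was lost in 8 of the 12 fits that left out a library: without any 1 of the 6 Mirc11-/- libraries, and without stimulated wild-type replicate 1 or 3. The log2 fold change in those fits was 0.817 to 1.05 and the adjusted p 0.0606 to 0.143. In stimulated Mirc11-/- against stimulated wild-type cells, dendritic-cell markers summed to 23.1 to 33.7 against 26.1 to 29.7 CPM. Macrophage and monocyte markers summed to 12.1 to 15.8 against 16.1 to 19.5 CPM. In unstimulated cells these sums were 11.1 to 14.3 against 11.3 to 15.6 CPM and 5.3 to 9.55 against 8.94 to 11.4 CPM. Of the 4 dendritic-cell and 3 macrophage markers tested, 0 passed for genotype in either treatment. The part of these cells in the Itgax results was not tested.

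Itgb2 was 1.7-fold lower in stimulated Mirc11-/- than in stimulated wild-type cells, at 133 to 153 against 237 to 257 CPM (log2 fold change -0.763 ± 0.0915, adjusted p = 0.000485). In unstimulated cells it had 307 to 351 against 401 to 444 CPM (-0.35 ± 0.0906, adjusted p = 0.0999 in edgeR and 0.0038 in DESeq2). Itgb1 was 1.33-fold lower in stimulated Mirc11-/- cells, at 349.6 to 421 against 499 to 563 CPM (-0.408 ± 0.0992, adjusted p = 0.0254), a call lost without stimulated wild-type replicate 2 (-0.355, adjusted p = 0.119) or 3 (-0.444, adjusted p = 0.0686). Itgal showed almost no difference between genotypes (-0.00427 ± 0.0937 in stimulated and -0.0285 ± 0.0935 in unstimulated cells). Itga2b had 1.91 to 2.43 against 0.561 to 1.37 CPM after stimulation (1.01 ± 0.309, adjusted p = 0.0555) and 1.11 to 1.66 against 0.762 to 0.989 CPM before it (0.566 ± 0.322, adjusted p = 0.694).

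All 3 calls in stimulated cells were lost with the vomeronasal receptor level as a covariate, at -0.524 for Itgb2 (adjusted p = 0.279), 1.6 for Itgax (0.528) and -0.204 for Itgb1 (0.95), and stimulated Mirc11-/- libraries did not overlap stimulated wild-type ones in that level. The 4 calls in unstimulated cells were kept, and Itgb2 passed there as well (-0.332, adjusted p = 0.0366). NK markers were lower in sum without Mirc11 in stimulated cells, at 4960 to 7640 against 8530 to 9910 CPM. There 0 of the 12 passed as higher and 3 as lower in edgeR, and DESeq2 passed Eomes, Gzmb, Nkg7 and Prf1. In unstimulated cells the sums overlapped, at 12600 to 13600 against 11600 to 13900 CPM, and 0 of the 12 passed. Markers of T cells, which also carry Itgal, Itga4 and Itgb7, moved with genotype too. The 9 of them summed to 80.1 to 101 against 48.5 to 74.6 CPM in stimulated cells, where 2 of 9 passed as higher, and to 67.9 to 114 against 38.8 to 66.9 CPM in unstimulated cells, where 0 of 9 passed in edgeR, 3 had an unadjusted p under 0.05, and DESeq2 and limma voom passed 0. None of the 9 was at 0 throughout a group. The 5 mast-cell and basophil markers summed to 9.16 to 19.7 against 39.1 to 46.5 CPM in stimulated and 19.9 to 28.2 against 44.1 to 57.2 CPM in unstimulated cells. Most of this was Mcpt8, a basophil protease, which averaged 12.1 against 38.0 CPM in stimulated cells (log2 fold change -1.65, adjusted p = 0.00237) and 21.5 against 47.7 CPM in unstimulated cells (-1.15, adjusted p = 0.0283). Cpa3 was lower in stimulated cells (-1.26, adjusted p = 0.0157), and the other 3 markers averaged under 0.3 CPM in every group, Fcer1a at 0. The part of these cells in the integrin results was not tested.

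Whether the response to stimulation itself differed between genotypes was tested as an interaction. None of the 11 rows passed in edgeR, where 0.0115% of all tested genes did. An unadjusted p under 0.05 was reached by 3 of them. These were Itga4, whose rise was larger in Mirc11-/- cells (difference of log2 fold changes 0.397 ± 0.11, adjusted p = 0.366), Itga1, whose rise was smaller (-0.417 ± 0.128, adjusted p = 0.394), and Itgb2, whose fall was larger (-0.414 ± 0.128, adjusted p = 0.398). The DESeq2 Wald test passed 1 of them, Itga4 (adjusted p = 0.0252), and limma voom passed 0. The treatments differed in which integrins passed for genotype, and those differences between treatments did not pass in edgeR.

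The balance between chains that pair was described per kilobase and was not tested, since it is a score over these genes. The ratio of Itgb2 to the sum of its α partners Itgal, Itgam, Itgax and Itgad was 0.513, 0.553 and 0.596 in stimulated and 0.9, 0.851 and 0.957 in unstimulated Mirc11-/- cells. Wild-type cells had ratios of 1.2, 1.11 and 1.29 when stimulated and 1.56, 1.43 and 1.4 when not. No group overlapped another, and the order of the groups was the same with merged exon lengths, where the means were 0.656, 1.07, 1.43 and 1.75. The summed level of the partners averaged 88.3 and 125 CPM per kilobase in stimulated and unstimulated Mirc11-/- cells and 69.3 and 98.8 in wild-type cells.

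**Figure D4:**
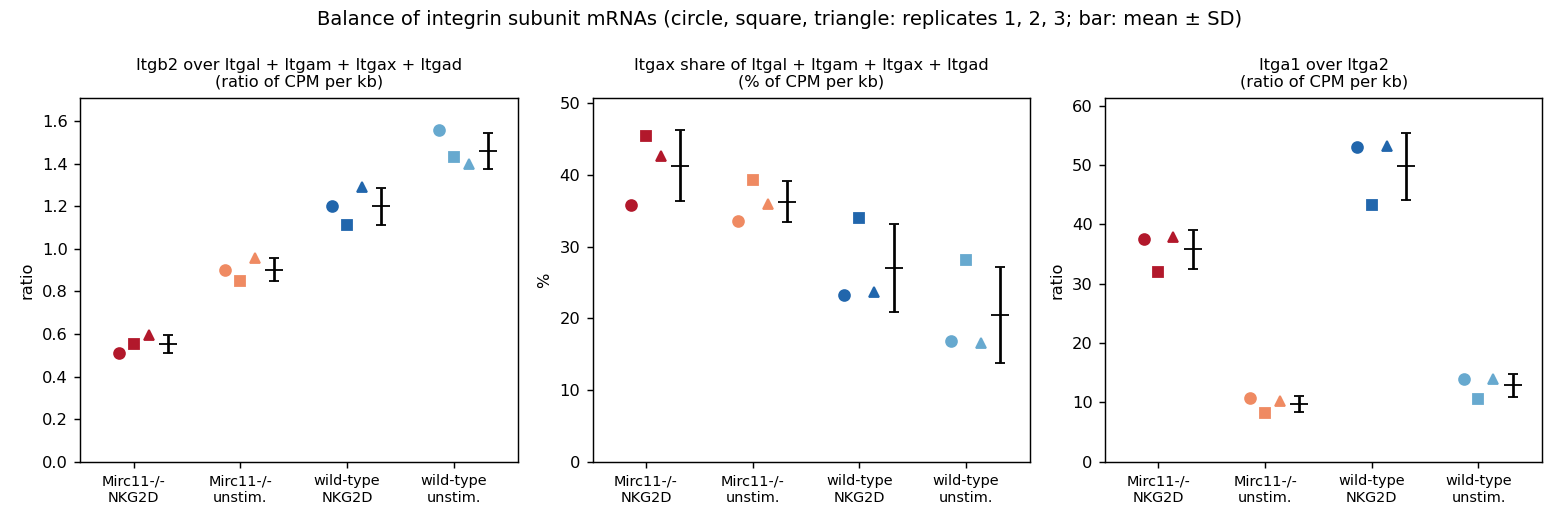
Ratios and shares of integrin chains in each library, per kilobase of transcript and with the mean and SD of 3 libraries as a bar. Itgb2 over its α partners is lowest in stimulated Mirc11-/- cells (0.513 to 0.596) and highest in unstimulated wild-type cells (1.4 to 1.56), and Itga1 over Itga2 is higher with stimulation in both genotypes.

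Itgax made up 41.3 ± 4.96% of the summed partners of Itgb2 in stimulated and 36.3 ± 2.87% in unstimulated Mirc11-/- cells, and 27 ± 6.1% and 20.5 ± 6.69% in wild-type cells (SD, n = 3). Itgal made up most of the rest, 52.7 ± 5.14% and 57.5 ± 2.73% in Mirc11-/- cells and 67.5 ± 5.8% and 74.8 ± 7.74% in wild-type cells. The ratio of Itga1 to Itga2 was 35.8 ± 3.25 in stimulated against 9.7 ± 1.34 in unstimulated Mirc11-/- cells, and 49.8 ± 5.69 against 12.9 ± 1.93 in wild-type cells. The ratio of Itga4 to Itgb1 was 0.219 ± 0.0264 in stimulated against 0.098 ± 0.00398 in unstimulated Mirc11-/- cells and 0.195 ± 0.0217 against 0.139 ± 0.013 in wild-type cells. Itgb1 over Itgb2 was 2.1 ± 0.053 in stimulated against 0.794 ± 0.0966 in unstimulated Mirc11-/- cells and 1.65 ± 0.137 against 0.685 ± 0.0328 in wild-type cells, so Itgb1 exceeded Itgb2 in stimulated cells of both genotypes and was below it in unstimulated ones.

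Promoters of Itga4 and Itgax are shown because Itga4 had the smallest adjusted p of the 10 genes with stimulation, in both genotypes, and with loss of Mirc11 in unstimulated cells, where Itgax had the largest fold. RefSeq (GRCm38.p6) held 8 of the 10 promoters, each 250 bases before to 50 after the start, searched on both strands for TGTGGT (RUNX), TGANTCA (AP-1), GGTGTGA (T-box) and CCGGAAG (ETS). RUNX, T-box and ETS proteins are transcription factors of NK cells, and AP-1 is induced by receptor signalling. Itga4, at chr2:79255176-79255475 on the plus strand, held a T-box and a RUNX match, the second on the other strand. Itgax, at chr7:128129300-128129599 on the plus strand, held an AP-1 and a RUNX match. Matches are in capitals.
Itga4: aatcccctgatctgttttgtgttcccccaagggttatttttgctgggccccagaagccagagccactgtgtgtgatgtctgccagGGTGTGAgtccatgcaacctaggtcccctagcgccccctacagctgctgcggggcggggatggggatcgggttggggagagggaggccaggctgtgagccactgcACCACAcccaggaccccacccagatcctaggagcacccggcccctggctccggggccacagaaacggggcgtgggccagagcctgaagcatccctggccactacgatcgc
Itgax: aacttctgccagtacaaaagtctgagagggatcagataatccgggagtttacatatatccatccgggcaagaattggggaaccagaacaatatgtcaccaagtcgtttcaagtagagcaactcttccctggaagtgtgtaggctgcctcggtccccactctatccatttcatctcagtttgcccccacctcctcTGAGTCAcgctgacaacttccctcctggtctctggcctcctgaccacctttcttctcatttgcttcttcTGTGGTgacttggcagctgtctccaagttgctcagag
Over all 32851 promoters searched, 16.8% held the RUNX letters, 7.81% the AP-1 letters, 3.98% the T-box letters and 8.86% the ETS letters. The other 6 integrin promoters held none of the 4 motifs in this window.

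Lists of other integrin subunits, ligands, activation genes and signalling genes are read beside all tested genes. Of those, 23.5% were higher and 22.1% lower with stimulation in Mirc11-/- cells (median log2 fold change 0.0319) and 16.1% and 15.7% in wild-type cells (0.0208). For loss of Mirc11 the shares were 3.89% higher and 5.13% lower in stimulated (median 0.0227) and 0.309% and 0.796% in unstimulated cells (0.00762).

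Of the 16 other integrin subunits, 11 were tested. With stimulation 6 of the 11 were higher and 1 lower in Mirc11-/- cells and 5 higher and 0 lower in wild-type cells, with median log2 fold changes of 0.664 in Mirc11-/- and 0.742 in wild-type cells. Itgb3, which pairs with Itgav to bind vitronectin and osteopontin and with Itga2b on platelets, was as abundant as the members: 400.3, 415 and 398 CPM in stimulated and 234, 171 and 216 CPM in unstimulated Mirc11-/- cells, and 508, 462 and 487 CPM against 299, 315 and 256 CPM in wild-type cells. It rose in both genotypes (log2 fold change 0.967 ± 0.116, adjusted p = 2.48e-05, in Mirc11-/- and 0.742 ± 0.115, adjusted p = 0.000316, in wild-type cells). Among the low subunits, Itgb4 rose in both genotypes (log2 fold change 1.13 in Mirc11-/- and 1.27 in wild-type cells), as did Itga7 (3.3 in Mirc11-/- and 1.91 in wild-type cells). Itga7 was near the floor, with 12, 9 and 12 counts in stimulated and 2, 0 and 1 in unstimulated Mirc11-/- libraries. In wild-type libraries it had 13, 9 and 6 against 3, 3 and 2 counts. Of the subunits called higher in either genotype, Itgb4, Itga7, Itga10, Itgae and Itgb6 averaged under 2.2 CPM in every group. Itga10 was at 0.664 in Mirc11-/- cells (adjusted p = 0.1) and rose in wild-type cells (1.19, adjusted p = 0.0169). Itga3, a laminin receptor chain, rose in Mirc11-/- cells (0.551, adjusted p = 0.0017) and was at 0.121 in wild-type cells (adjusted p = 0.431). It was also the 1 subunit of this list called in edgeR for loss of Mirc11. It was lower in stimulated (-0.385 ± 0.111, adjusted p = 0.0471) and unstimulated cells (-0.814 ± 0.114, adjusted p = 0.00243), where the list's medians were 0.225 and 0.0213. An unadjusted p under 0.05 was reached by 4 of the 11 in stimulated and 5 in unstimulated cells. DESeq2 passed Itga3 and Itgav in stimulated cells and Itga3, Itgav and Itgb3 in unstimulated cells, and limma voom passed 1 in each. Without Mirc11, unstimulated means were 236 against 343 CPM for Itgav and 207 against 290 CPM for Itgb3.

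Genes for integrin ligands were mostly scarce in these cells, and 9 of 15 were tested. Icam1, the ligand of LFA-1, had 48.0, 45.2 and 42.0 CPM in stimulated and 28.1, 26.0 and 24.2 CPM in unstimulated Mirc11-/- cells, and 51.7, 65.8 and 50.3 CPM against 22.4, 20.9 and 20.7 CPM in wild-type cells. It rose 1.73-fold in Mirc11-/- cells (adjusted p = 6.51e-05) and by 1.39 on the log2 scale in wild-type cells (adjusted p = 9.14e-07). Vcam1, the ligand of Itga4 with Itgb1, rose as well (log2 fold change 2.17 in Mirc11-/- and 1.71 in wild-type cells) at levels under 1.1 CPM in every group, as did the complement gene C3 (1.88 in Mirc11-/- and 4.29 in wild-type cells). The collagen gene Col1a2 was at 1.1 in Mirc11-/- cells (adjusted p = 0.0864) and rose in wild-type cells (2.39, adjusted p = 0.0123). Spp1, which encodes osteopontin, averaged 2866 CPM in stimulated and 5931 CPM in unstimulated Mirc11-/- cells and fell with stimulation (-1.05 ± 0.18, adjusted p = 0.000396), as it did in wild-type cells (-0.51 ± 0.178, adjusted p = 0.0421), where the means were 5931 CPM in stimulated and 8448 CPM in unstimulated libraries. It was also lower without Mirc11 in stimulated cells (-1.05 ± 0.18, adjusted p = 0.00479), as was F11r, which encodes JAM-A (-1.33 ± 0.239, adjusted p = 0.00614). With stimulation 3 of the 9 were higher and 1 lower in Mirc11-/- cells (median 0.398), and 5 higher and 1 lower in wild-type cells (median 0.695). With loss of Mirc11, 0 were higher and 2 lower in stimulated cells in edgeR (median -0.153). There 4 of the 9 reached an unadjusted p under 0.05, DESeq2 passed 3, F11r, Icam1 and Spp1, and limma voom passed 2. In unstimulated cells none passed in edgeR (median 0.112), where F11r (-1.04, adjusted p = 0.0793) and Col1a2 (2.19, adjusted p = 0.195) had the smallest p. An unadjusted p under 0.05 was reached by 5 of the 9, and DESeq2 and limma voom passed 0.

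Of 21 genes that act on integrin activation from inside the cell, some to unlock integrins and some to restrain them, 4 were higher and 9 lower with stimulation in Mirc11-/- cells and 5 higher and 8 lower in wild-type cells (medians -0.258 and -0.0561). Tln1, which encodes talin, fell 1.78-fold in Mirc11-/- cells (log2 fold change -0.836 ± 0.102, adjusted p = 2.88e-05) and by 0.671 on the log2 scale in wild-type cells (adjusted p = 0.00026). Rasgrp1, an activator of Ras and Rap proteins, fell 2.8-fold in Mirc11-/- cells (-1.49 ± 0.0792, adjusted p = 3.45e-08), the adaptor Dok2 fell 4.55-fold (-2.19 ± 0.132, adjusted p = 7.34e-08), and the LFA-1 adaptor Skap1 fell 1.95-fold (-0.962 ± 0.0734, adjusted p = 5.28e-07). In wild-type cells their log2 fold changes were -1.08, -1.75 and -0.938, and each passed. Members that restrain integrins were called in both directions: Sipa1, which switches Rap proteins off, and Flna, a filamin that competes with talin, fell in both genotypes, and Cytip and Dok1 rose in both. With loss of Mirc11, 3 of the 21 passed in edgeR in stimulated cells, with a median of -0.0794 over the list. Rasgrp1 (-0.316, adjusted p = 0.0278) and Dok2 (-0.52, adjusted p = 0.028) were lower and Skap1 was higher (0.293, adjusted p = 0.0294). An unadjusted p under 0.05 was reached by 8 of the 21 there. The DESeq2 Wald test passed 7, these 3 with Fermt3, Flna, Rasgrp2 and Tln1, and limma voom passed 3. Without Mirc11, Tln1 averaged 539 against 642 CPM and Fermt3, which encodes a kindlin, 159 against 202 CPM. None passed in unstimulated cells in edgeR, where Skap1 (0.317, adjusted p = 0.055) and Dok1 (0.268, adjusted p = 0.332) had the smallest p. An unadjusted p under 0.05 was reached by 3 of the 21, the DESeq2 Wald test passed 2, Fyb and Skap1, and limma voom passed 0.

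Of 24 genes that signal from bound integrins, 23 were tested, and 7 were higher and 9 lower with stimulation in Mirc11-/- cells and 5 higher and 7 lower in wild-type cells (medians -0.124 and 0.073). The adaptors Bcar3 (-2.14 in Mirc11-/- and -2.54 in wild-type cells) and Nedd9 (-1.18 and -0.596) and the exchange factor Arhgef7 (-0.861 and -0.871) fell in both genotypes. Parva, the actin-binding α-parvin, rose in both (2.06, adjusted p = 9.75e-06, in Mirc11-/- and 0.831, adjusted p = 0.00988, in wild-type cells), and so did Vcl, which encodes vinculin (0.581, adjusted p = 0.000291, in Mirc11-/- and 0.596, adjusted p = 0.000318, in wild-type cells). Without Mirc11, 2 were higher and 3 lower in stimulated cells and 0 higher and 2 lower in unstimulated cells in edgeR (medians -0.0925 and -0.0697). In stimulated cells 10 of the 23 reached an unadjusted p under 0.05. DESeq2 passed 5 there, with Pxn in place of Tgfb1i1, and limma voom passed 4. In unstimulated cells 3 reached an unadjusted p under 0.05, and DESeq2 and limma voom each passed 2. Vcl was lower in both treatments, at 37.7, 34.2 and 40.7 CPM in stimulated Mirc11-/- against 52.2, 60.1 and 54.7 CPM in stimulated wild-type cells (-0.568 ± 0.0934, adjusted p = 0.00379) and 28.0, 23.3 and 23.8 against 37.0, 35.3 and 38.1 CPM unstimulated (-0.553 ± 0.095, adjusted p = 0.0104). Bcar3 was lower in stimulated (-0.974 ± 0.247, adjusted p = 0.0305) and unstimulated Mirc11-/- cells (-1.37 ± 0.192, adjusted p = 0.00243). In stimulated cells Nedd9 was lower (-0.632, adjusted p = 0.00303), and Parva (0.985, adjusted p = 0.0135) and Tgfb1i1 (2, adjusted p = 0.0242) were higher. Tgfb1i1 was scarce, with 31, 11 and 21 counts in stimulated Mirc11-/- and 6, 8 and 4 in stimulated wild-type libraries. The vomeronasal covariate was read for the integrin rows only, not for these lists. No gene of these 4 lists passed for the interaction in edgeR, where Nedd9 (-0.589, adjusted p = 0.273), Parva (1.23, adjusted p = 0.33), Icam1 (-0.602, adjusted p = 0.32), Rasgrp1 (-0.411, adjusted p = 0.366), Dok2 (-0.438), Itga3 (0.429), Itgad (-0.808) and Spp1 (-0.539) had the smallest p of their lists. An unadjusted p under 0.05 was reached by 1 of the other subunits, 1 of the ligands, 3 of the activation genes and 3 of the signalling genes. DESeq2 passed 1 gene of the 4 lists, Nedd9, and limma voom passed 0.

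For each integrin the gene with the most similar profile was found by Pearson's r of log2 CPM over the 12 libraries, among the 10771 genes whose mean log2 CPM was 2 or more. The libraries share their groups, so these values describe the profiles only. Itgb2 was nearest to Mapk6 (r = 0.991), a mitogen-activated protein kinase, and Itgal to the receptor gene Notch1 (r = 0.992). Itga4 was nearest to the zinc-finger gene Zfp948 (r = 0.983), Itgb1 to Ncoa4 (r = 0.988), which encodes a receptor for ferritin breakdown, and Itga2 to the unnamed gene model Gm38312 (r = 0.985). Itgax was nearest to Gm1966 (r = 0.962), Itga1 to Spsb2 (r = 0.949), Itgam to the interferon-inducible gene Ifi206 (r = 0.938), Itgb7 to Adgre5 (r = 0.932), which encodes the leukocyte protein CD97, and Itga2b to Gucd1 (r = 0.91). No 2 integrins had the same nearest gene.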

How the data were processed

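The deposited values were RSEM expected counts per gene, rounded to whole numbers by the authors. Per the submitters' processing notes, bcl2fastq, Trim Galore 0.4.1, Bowtie2 2.2.8, RSEM 1.3.0 and the GRCm38 genome were used. The annotation release and strand setting are not given in the sources used here. Whether the counting told sense and antisense reads apart is therefore not known. RSEM shares reads among overlapping models, so Itgam and Gm49368 are uncertain in their split.

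Genes were filtered by group with filterByExpr, scaled by TMM and fitted with edgeR 4.0.16 (R 4.3.3, robust quasi-likelihood, 12 libraries, 1 mean per group). P-values are two-sided and adjusted by Benjamini-Hochberg over 17457 genes, with a threshold of 0.05. The labels call the replicates biological without naming animals, so p-values measure the spread between these samples. CPM uses TMM-scaled totals, and per-kilobase levels the longest protein-coding transcript. DESeq2 1.42.0, limma 3.58.1 (voom), other scalings, filters, blocks, a vomeronasal covariate and leaving out libraries were alternatives. Integrins and lists were chosen with earlier results of these data known. From each list, up to 4 genes per comparison with the smallest p past the threshold, or up to 2 where none passed, are named, and summarised where the text says so. Marker and ligand genes named beside a result were picked from their lists after their values were seen.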

Additional observations from a re-analysis of the deposited data

How the results depend on the processing

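Over 20 called integrin results and 453 alternative fits, the call and direction were kept in 395, the call was lost in 58 and no sign changed. Of 771 alternative fits of the 35 uncalled results, 34 passed. Among these were Itgax (DESeq2, voom, non-robust fit, no composition factor, and the replicate block with an adjusted p of 0.00181) and Itgb2 (DESeq2, no composition factor, covariate) for loss in unstimulated cells, Itgam, Itgb7, Itga2b and Itga4 for loss in stimulated cells, and Itgax for stimulation in Mirc11-/- cells with the replicate block within genotype (-0.323, adjusted p = 0.00956). Leaving out a library gave 6 to 7 called rows of 11 (6 with all libraries) for stimulation in Mirc11-/- cells and 6 to 8 (7) in wild-type cells, 1 to 6 (3) for loss of Mirc11 in stimulated and 1 to 5 (4) in unstimulated cells, and 0 for the interaction. For loss of Mirc11 in stimulated cells the count was 5 with no composition factor, 7 with DESeq2, 1 with only the groups compared, 5 with the replicate block and 0 with the vomeronasal covariate. In unstimulated cells it was 6 with DESeq2 or no composition factor and 2 with only the groups compared. It was 1 for stimulation in Mirc11-/- cells with the covariate, and 1 for the interaction with DESeq2. Replicate numbers were shared by all groups. Deviations from the group mean of log2 CPM correlated at 0.0581, -0.0667 and 0.126 between same-numbered stimulated and unstimulated Mirc11-/- libraries. In wild-type cells these values were 0.0595, 0.196 and 0.137, each above the mean with other numbers (-0.0253, -0.104 and -0.0674). The labels do not say whether same-numbered libraries were paired, and these values do not settle it. The main fit treats them as unpaired.

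Values that changed sign were all uncalled. Itgal gave 0.0655 with no composition factor and 0.0273 with the stricter filter for loss in stimulated cells, and -0.0391 with no filter and -0.106 with the covariate for the interaction. Itgax gave 0.888, 0.501 and 0.387 with the covariate for stimulation in Mirc11-/- cells, in wild-type cells and their difference. Gm49368 gave -0.913, -0.112 and -0.801 for the same, and -1.02 with voom and -0.0431 with the replicate block within genotype for the difference. Leave-one-out values ranged from -0.0774 to 0.0266 for Itgal for loss in stimulated cells, -0.107 to 0.0289 in unstimulated cells and -0.0405 to 0.088 for the interaction. They ranged from -0.392 to 0.236 for Itgax and -0.0727 to 0.469 for Itga2b for wild-type stimulation, and from -0.565 to 0.064 for Itgax and -2.67 to 0.837 for Gm49368 for the interaction. The cause was not tested. Depth limits Gm49368 and Itga2b most, at 42 counts or fewer per library.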
